A study of Homo sapiens with 6 samples.

Results

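The genes of a cell are read from a start, where the promoter loads RNA polymerase, to an end, where the transcript is cut and released. The authors of this study listed 3838 regions, read here as less accessible in myeloma cells treated with JQ1. Of these, 319 (8.31%) overlapped or lay at most 1000 bp from the start or end coordinate of a protein-coding or long noncoding RNA (lncRNA) gene. These gene-end regions are described here. They were chosen by the coordinates of each region alone, from the gene table of NCBI RefSeq for GRCh38, and the other 3519 regions lay farther from such coordinates, inside genes or between them. The 319 regions lay at the ends of 354 genes, 178 protein-coding and 176 lncRNA genes.

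The assay, ATAC-seq, uses a transposase that cuts open DNA and tags the ends for sequencing, and 6 libraries were listed. JQ1 at 1 µM for 72 h was given to 3 human multiple myeloma lines of genotype WT, KMS-11, KMS-12 and RPMI8226, and DMSO, the solvent, was given to the same 3 lines, with 1 library per line and treatment. Each line is an established culture of malignant plasma cells, so the spread over 3 lines is a spread between tumour lines and not between cultures of one line. The design text also speaks of duplicates and of RNA-seq, which were not analysed here. The table lists only regions read here as lower in accessibility, so the labelled cell type could not be checked against its marker genes. In bulk libraries of this kind, a region open in fewer cells and a region less open in each cell cannot be told apart.

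JQ1 occupies the acetyl-lysine pocket of the BET proteins and so detaches them from acetylated histones at promoters and enhancers. Open chromatin at an active gene start is kept by transcription factors and the transcription machinery, and the region past the 3′ end of a gene can hold enhancers or the promoter of the next gene. Many active starts lie in CpG islands, stretches rich in the CG dinucleotide, while starts of genes used in few tissues often lie in CpG-poor DNA.

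Sequence was at hand for the promoter windows of RefSeq (GRCh38.p14), which run from 250 bases before a gene start to 50 after it. A window was overlapped by 82 of the 319 gene-end regions and by 24 of the other 3519. Printed below are the 6 windows whose overlapping regions had the lowest mean folds, to show the DNA of gene starts with low folds. Regions near a start that overlap no window, such as that of TTC39C, are not among them. The TTC39C region lay 27 bp from the start coordinate of the gene table, so the starts on which windows were placed can differ from the coordinates of the rule. The windows of HES1 and NR3C1, transcription factor genes described further on, were added after their values were seen. Sequences run 5′ to 3′ on the strand of the gene, and capitals mark letters that match, on either strand, any of 9 motifs named after the sequences.
LOC124904677: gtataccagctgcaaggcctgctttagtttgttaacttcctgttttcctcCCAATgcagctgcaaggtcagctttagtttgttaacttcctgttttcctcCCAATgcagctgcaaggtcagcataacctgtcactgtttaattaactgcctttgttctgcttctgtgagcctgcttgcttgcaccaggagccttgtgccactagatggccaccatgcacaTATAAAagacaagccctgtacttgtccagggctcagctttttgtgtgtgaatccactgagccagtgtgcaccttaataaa
LOC124900834: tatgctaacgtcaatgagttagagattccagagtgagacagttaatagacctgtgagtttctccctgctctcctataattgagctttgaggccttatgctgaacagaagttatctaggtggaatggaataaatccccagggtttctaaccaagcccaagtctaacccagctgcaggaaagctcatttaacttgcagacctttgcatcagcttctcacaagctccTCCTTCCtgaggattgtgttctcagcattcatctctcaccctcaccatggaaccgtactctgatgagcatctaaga
NALF1-IT1: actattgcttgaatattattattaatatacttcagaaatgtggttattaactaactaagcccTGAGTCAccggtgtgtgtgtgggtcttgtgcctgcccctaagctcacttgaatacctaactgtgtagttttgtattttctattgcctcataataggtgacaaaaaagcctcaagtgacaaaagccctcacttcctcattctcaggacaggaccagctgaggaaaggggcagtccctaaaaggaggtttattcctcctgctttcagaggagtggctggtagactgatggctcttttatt
FCRL4: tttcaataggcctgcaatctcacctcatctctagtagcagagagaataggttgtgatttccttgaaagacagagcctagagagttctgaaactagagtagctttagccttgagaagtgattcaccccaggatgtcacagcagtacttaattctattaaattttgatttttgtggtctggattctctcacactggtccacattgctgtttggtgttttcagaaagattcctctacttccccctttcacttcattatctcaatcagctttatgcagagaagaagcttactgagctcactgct
LOC124901265: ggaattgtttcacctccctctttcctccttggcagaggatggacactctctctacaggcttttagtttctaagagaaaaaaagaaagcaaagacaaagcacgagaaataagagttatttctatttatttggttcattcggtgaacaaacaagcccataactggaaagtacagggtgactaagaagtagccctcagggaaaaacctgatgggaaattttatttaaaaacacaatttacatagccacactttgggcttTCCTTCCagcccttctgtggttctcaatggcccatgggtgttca
GPR171: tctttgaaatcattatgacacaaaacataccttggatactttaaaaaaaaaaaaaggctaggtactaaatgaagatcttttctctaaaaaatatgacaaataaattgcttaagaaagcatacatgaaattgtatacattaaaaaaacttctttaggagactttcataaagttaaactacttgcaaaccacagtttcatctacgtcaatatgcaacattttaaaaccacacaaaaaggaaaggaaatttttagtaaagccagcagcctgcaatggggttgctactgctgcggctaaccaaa
HES1: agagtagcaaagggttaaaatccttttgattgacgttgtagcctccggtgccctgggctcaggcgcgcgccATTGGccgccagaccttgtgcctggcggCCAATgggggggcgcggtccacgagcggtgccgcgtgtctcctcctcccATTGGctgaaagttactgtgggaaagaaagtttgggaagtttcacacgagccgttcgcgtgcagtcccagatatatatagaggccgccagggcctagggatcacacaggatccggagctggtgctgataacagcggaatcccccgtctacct
NR3C1: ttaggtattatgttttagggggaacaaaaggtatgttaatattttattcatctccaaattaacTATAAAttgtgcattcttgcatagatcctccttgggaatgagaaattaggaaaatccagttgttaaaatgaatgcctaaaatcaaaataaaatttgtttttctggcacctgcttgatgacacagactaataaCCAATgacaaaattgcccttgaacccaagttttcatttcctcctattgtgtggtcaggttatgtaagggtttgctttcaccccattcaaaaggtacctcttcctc

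In the order of the names above, the windows are chr19:23824015-23824314 (minus strand), chr4:89196269-89196568 (plus), chr13:107835409-107835708 (minus), chr1:157598036-157598335 (minus), chr6:14108513-14108812 (plus), chr3:151203167-151203466 (minus), chr3:194135898-194136197 (plus) and chr5:143435463-143435762 (minus). The deposited region covered 300 bases of the windows of LOC124904677, LOC124900834 and FCRL4, 260 of HES1, 221 of NALF1-IT1, 175 of GPR171, 112 of NR3C1 and 8 of LOC124901265. All but that of HES1 were CpG-poor: the observed to expected ratio of CG dinucleotides was 0 at LOC124904677, FCRL4 and NR3C1, at most 0.280 in the others (GPR171), and 0.809 at HES1. The HES1 window holds the CCAAT box, the core of NF-Y sites, 3 times, at positions 72, 100 and 149 counted from the 5′ end of the window. NALF1-IT1 holds 1 AP-1 site at position 63, and the windows of FCRL4 and GPR171 hold none of the 9 motifs.

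The motifs were searched on both strands, as plain letters. They were the ETS core CCGGAAG, the repeat GGAAGGA, the E-box CACGTG, the cyclic AMP element TGACGTC, the AP-1 site TGACTCA, the octamer core ATTTGCA, the GC box GGGCGG, the CCAAT box and the TATA box TATAAA. The ETS core and the GGAA repeat share the letters GGAAG, so that 1 stretch can hold both. In the 102 windows overlapped by gene-end regions, the ETS core was found in 2 (1.96%), against 10.3% of all 35116 windows. Both windows belonged to protein-coding genes, CD276 (chr15:73684520-73684819) and ZFP3 (chr17:5078217-5078516). The GGAA repeat was found in 16 (15.7%, against 11.6% of all windows) and the E-box, bound by MYC with MAX, in 4 (3.92%, against 7.26%). The CCAAT box was found in 28.4%, against 34.6%. Shares were closer for the GC box (46.1%, against 45.0%), the TATA box (12.7%, against 11.5%), the AP-1 site (4.90%, against 4.95%), the octamer (3.92%, against 4.20%) and the cyclic AMP element (3.92%, against 3.45%). Base composition was alike as well, with a median GC content of 58.5%, against 58.7%, and a CpG ratio of 0.6 or more in 49.0% of the windows, against 48.9%. A match of letters is not a binding site, windows of one gene can overlap, and no test was made.

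The gene-end regions had folds of about the size listed in the rest of the table. Values are the authors' log fold changes, read as log2 of JQ1 over DMSO, since the header states neither the base nor the direction, and all 3838 regions are below 0 in all 3 lines, so the table is a list selected for loss. The median of the mean over lines was -0.68 in gene-end regions (quartiles -0.81 and -0.57), against -0.71 in the other regions (quartiles -0.87 and -0.59). As JQ1 to DMSO ratios these are 0.625 in gene-end regions, against 0.610 in the other regions. Line by line, in the authors' deposited table, gene-end regions had a median of -0.66 in KMS-11, against -0.73 in the other regions. In KMS-12 they had -0.82, against -0.79, and in RPMI8226 -0.57, against -0.62. The difference of medians, gene-end minus other, averaged 0.03 ± 0.06 (SD, n = 3 lines) and had no one sign (exact sign-flip permutation test over lines, two-sided p = 0.5, with 0.25 the smallest possible). The difference was negative in KMS-12 (-0.03) and positive in KMS-11 (0.07) and RPMI8226 (0.05).

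**Figure D1:**
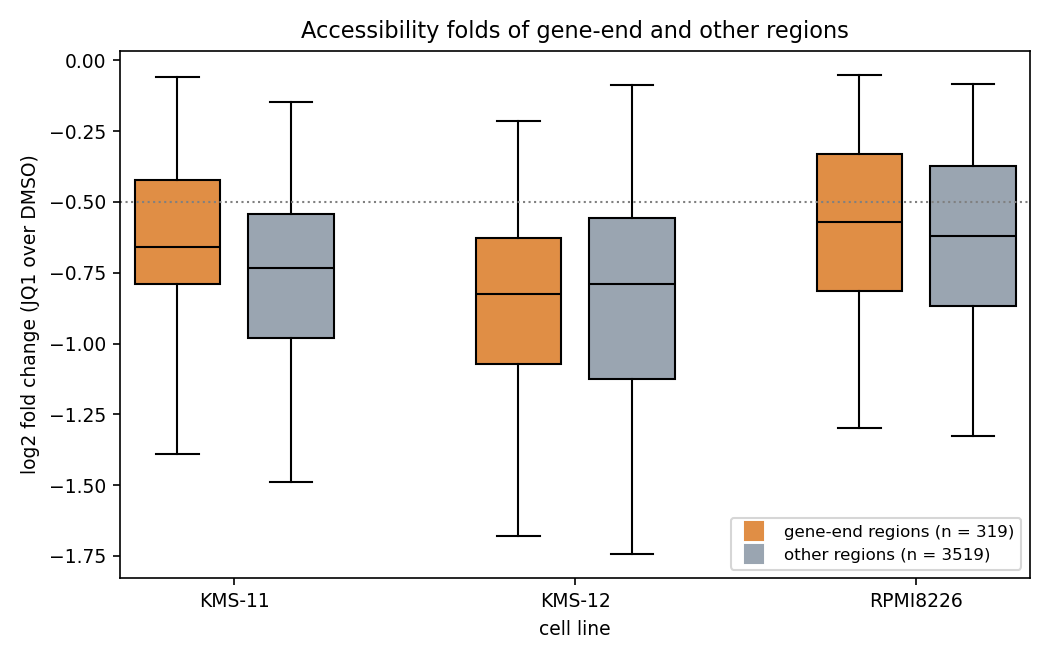
Log2 fold change of JQ1 over DMSO (y axis) in each cell line (x axis) for the 319 gene-end regions (orange, left of each pair) and the 3519 other regions (grey); boxes span the quartiles with the median as a line, whiskers the 5th to 95th percentile, and the dotted line marks -0.5. Medians of gene-end regions are nearer to 0 in KMS-11 (-0.66, against -0.73) and RPMI8226 (-0.57, against -0.62) and lower in KMS-12 (-0.82, against -0.79).

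By the count in the authors' deposited table, which equals the number of lines at or below -0.5, 70 gene-end regions were shared by all 3 lines, 21.9% (Wilson 95% interval 17.8 to 26.8%) against 25.1% of the other regions, and 24.8% of all regions were. A mean of -1 or lower, at most 0.5 of the DMSO signal, was reached by 28 gene-end regions, 8.78% (6.14 to 12.4%) against 12.6% of the other regions, and 12.3% of all regions did. Both shares are near or below those of the whole table. These intervals treat regions as independent and cover counting error only.

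The lines that shared a region were not distributed as in the rest of the table. KMS-11 was the line that missed -0.5 in 99 gene-end regions (31.0%), against 21.8% of the other regions, and KMS-12 in 39 (12.2%), against 21.2%. RPMI8226 missed it in 111 (34.8%), against 31.9%. Every listed region reached -0.5 in 2 or 3 lines, so the shares missed by each line are tied to one another. KMS-12 had the lowest of the 3 folds in 163 gene-end regions (51.1%), against 44.0% of the other regions, and KMS-11 in 81 (25.4%), against 32.7%. A fold of -1 or lower was listed in 45 gene-end regions in KMS-11 (14.1%, where 22.7% of all regions had one), in 90 in KMS-12 (28.2%, where 29.9% had one) and in 47 in RPMI8226 (14.7%, where 16.4% had one). A fold above -0.1, close to no change, was listed in KMS-11 for 24 gene-end regions (7.52%, against 3.58% of the others) and in KMS-12 for 8 (2.51%, against 5.51%). Each line had 1 library per treatment, so whether lines differ was not tested, and the depth of the libraries is unknown.

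Many folds recur to the last deposited digit in 10 or more regions of a line, as folds computed from few reads can do, and with no counts in the table the part of depth in this was not tested. In KMS-11, 33.5% of gene-end regions had such a fold, against 42.0% of the other regions. The share was 53.6%, against 52.2%, in KMS-12 and 7.84%, against 7.56%, in RPMI8226. At least 1 recurring fold was present in 66.1% of gene-end regions, against 68.8% of the others. Among regions with none, 108 gene-end and 1098 other, a mean of -1 or lower was reached by 13.9%, against 15.2%. Recurrence is given below for some of the named regions only.

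Regions at gene ends had a larger median width, 450 bp (quartiles 323.5 and 670) against 388 bp (quartiles 285 and 544). The rule itself favours wide regions, since a wider interval more often comes within 1000 bp of a coordinate. The part of this in the width difference was not tested. The difference of 62 bp was not seen in the regions without a recurring fold, where the medians were 516 bp, against 515.5 bp. A gene start or end lay inside the region itself in 112 of the 319, and the median gap to the nearest one was 184 bp. Regions of 700 bp or more numbered 72, and a mean of -1 or lower was reached by 1 (1.39%), against 27 of the 247 narrower regions (10.9%). Wide regions away from gene ends had a low share too: 20 of 399 (5.01%), where 12.6% of all the other regions reached such a mean.

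The lowest mean folds were listed at ends of lncRNA genes that carry a locus number in place of a name. The region over the start of LOC124904677 (chr19:23823958-23824359), whose window opens the sequences above, had folds of -2.73 (KMS-11), -1.55 (KMS-12) and -0.59 (RPMI8226) in the authors' deposited table. It averaged -1.62 ± 1.07 (SD, n = 3 lines), and -1.07 without KMS-11. That over the start of LOC124900834 (chr4:89196265-89196622) had -1.60 (KMS-11), -2.43 (KMS-12) and -0.73 (RPMI8226) in the authors' deposited table, a mean of -1.58 ± 0.85 (SD, n = 3 lines). Both were low in all 3 lines and least so in RPMI8226. The region over the 3′ end of LOC105369601 (chr12:1818586-1818956) rested on KMS-12 and RPMI8226 in the authors' deposited table, with -3.04 and -1.32, and had -0.09 in KMS-11. Its mean of -1.48 ± 1.48 (SD, n = 3 lines) was -0.71 without KMS-12.

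NALF1-IT1, a transcript within an intron of NALF1, was the one gene-end region at or below -1 in all 3 lines, which 39 of all 3838 regions (1.02%) were. Over its start (chr13:107835424-107835644) the authors' deposited table gave -1.68 (KMS-11), -1.48 (KMS-12) and -1.18 (RPMI8226), a mean of -1.45 ± 0.25 (SD, n = 3 lines). The KMS-11 value recurred in 18 regions and the KMS-12 value in 16. LOC124901265, the other lncRNA gene whose window is printed, had a region 42 bp from its start (chr6:14108805-14109382) that averaged -1.10 ± 0.89 (SD, n = 3 lines), and -0.62 without KMS-12.

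Protein-coding genes followed. SCD, the desaturase that makes oleate from stearate, had a region 7 bp from its 3′ end (chr10:100364833-100365282) with -1.85 (KMS-11), -1.13 (KMS-12) and -0.65 (RPMI8226) in the authors' deposited table. Its mean was -1.21 ± 0.60 (SD, n = 3 lines). On the gene side of the 3′ end of the histone gene H4C15 (chr1:149845461-149845688, gap 973 bp) the mean was -1.21 ± 0.28 (SD, n = 3 lines). The folds there were -1.50 (KMS-11), -1.19 (KMS-12) and -0.95 (RPMI8226) in the authors' deposited table. Histone genes are near-identical copies in clusters, and whether reads placed there map uniquely was not tested.

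Another 5 of the 12 lowest lay at DNAJC17, which encodes a J-domain protein (chr15:40765352-40765760, -1.21 ± 0.79), the lncRNA gene LOC105373426 (chr2:10533817-10534223, -1.20 ± 0.79, and -0.76 without KMS-12), PPTC7, a mitochondrial phosphatase (chr12:110531812-110532265, -1.20 ± 0.47), TTC39C (chr18:23992547-23992860, -1.15 ± 0.23) and FCRL4 (chr1:157598036-157598588, -1.14 ± 0.68; SD, n = 3 lines each). Of the 11 described, LOC105369601 alone missed -0.5 in KMS-11, FCRL4 alone in KMS-12 and DNAJC17 alone in RPMI8226. The KMS-12 fold of TTC39C recurred in 124 regions.

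**Figure D2:**
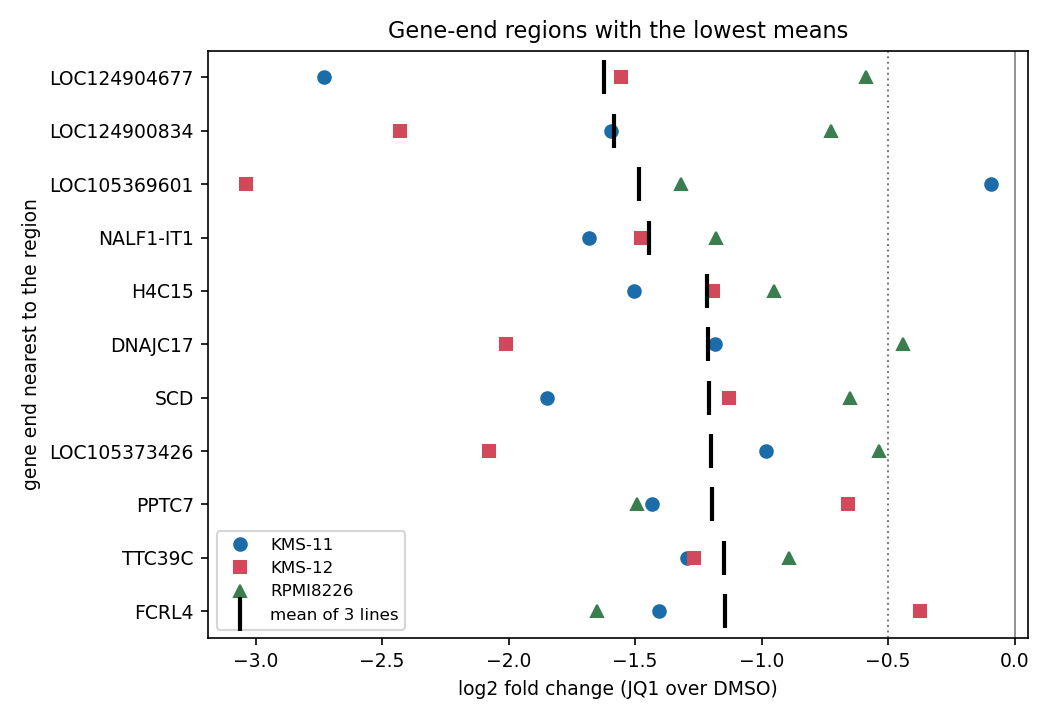
Log2 fold change of JQ1 over DMSO (x axis) in KMS-11 (circles), KMS-12 (squares) and RPMI8226 (triangles) for 11 of the 12 gene-end regions with the lowest mean (y axis, by nearest gene end); black bars are means of 3 lines and the dotted line marks -0.5. LOC105369601 runs from -3.04 in KMS-12 to -0.09 in KMS-11, while NALF1-IT1 stays between -1.68 and -1.18.

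The most even losses were smaller. At LOC729870 (chr4:152935713-152937906) folds of -0.73 (KMS-11), -0.77 (KMS-12) and -0.80 (RPMI8226) in the authors' deposited table gave a mean of -0.77 ± 0.03 (SD, n = 3 lines). The region near the 3′ ends of DDAH2 and of the platelet receptor gene MPIG6B (chr6:31727360-31727834) stood at -0.86 ± 0.06. LOC124903446 (-0.78 ± 0.06), CD300LD (-0.86 ± 0.06), LRRC8C, a subunit of volume-regulated anion channels (-0.94 ± 0.12), and LOC107984635 (-1.02 ± 0.13; SD, n = 3 lines each) completed the 6 regions with the smallest spread among those shared by 3 lines with a mean of -0.75 or lower. The CD300LD folds recurred in 178 regions in KMS-11 and 213 in KMS-12, and the part of this in their closeness was not tested.

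In 75 of the 319 regions the mean moved by more than 1.5 times when 1 line was left out: in 51 without KMS-12, in 15 without RPMI8226 and in 9 without KMS-11. An example is the region near LOC105369949 and LOC124903003 (chr12:104398765-104399071). In the authors' deposited table it had -0.05 (KMS-11), -2.26 (KMS-12) and -0.63 (RPMI8226), and its mean of -0.98 ± 1.14 (SD, n = 3 lines) was -0.34 without KMS-12. At the other extreme, means nearest to 0 were listed at LOC105375670 (-0.37 ± 0.31), the ciliary gene CATIP (-0.38 ± 0.29), TMEM132E (-0.38 ± 0.30) and STIP1, a co-chaperone of HSP70 and HSP90 (-0.41 ± 0.35, and -0.26 without KMS-12; SD, n = 3 lines each). Each had 1 line above -0.05 in the authors' deposited table, KMS-11 at the first 3 and RPMI8226 at STIP1.

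Immune genes formed the largest group of protein-coding genes by known role, although the groups used here were put together after the values were seen and carry no test. There were 27 regions at the ends of 26 such genes (ICAM4 is counted with the adhesion genes too), with a median mean of -0.68, the same as over all gene-end regions, 4 shared by 3 lines (14.8%, against 24.8% of all regions) and 3 with a mean of -1 or lower (11.1%, against 12.3% of all regions). FCRL4, an inhibitory receptor of tissue memory B cells, had -1.41 (KMS-11), -0.37 (KMS-12) and -1.65 (RPMI8226) over its start in the authors' deposited table. GPR171, a G protein-coupled receptor found on T cells, had -1.47 (KMS-11), -0.89 (KMS-12) and -0.92 (RPMI8226) over its start (chr3:151202954-151203341) in the authors' deposited table, a mean of -1.09 ± 0.32 (SD, n = 3 lines). FCRL4 was low in 2 of the lines and GPR171 in all 3.

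SLAMF7, the plasma cell surface receptor against which elotuzumab is directed, had a region 59 bp from one of its ends that also spans the start of the lncRNA gene LOC124904440 (chr1:160739116-160739463). In the authors' deposited table its folds were -0.75 (KMS-11), -0.44 (KMS-12) and -1.72 (RPMI8226). The mean of -0.97 ± 0.67 (SD, n = 3 lines) was -0.59 without RPMI8226. TNFSF18, the ligand of the costimulatory receptor GITR, had a region at either end. That over its 3′ end (chr1:173038930-173039294) averaged -1.004 ± 0.49 and was at or below -0.5 in all 3 lines. That over its start (chr1:173050941-173051127) averaged -0.68 ± 0.57 (SD, n = 3 lines each) with -0.03 in RPMI8226 in the authors' deposited table. The KMS-11 fold over the start was that at ICAM4, which recurred in 109 regions. The KMS-12 fold there was that of CD300LD, which recurred in 213.

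Among chemokine genes, CXCL6 (chr4:73836029-73836213) had -0.93 ± 0.87 beside its start, and -0.43 without KMS-12. CCL20, a chemoattractant of CCR6-bearing cells (chr2:227818190-227818639), had -0.74 ± 0.61 past its 3′ end, and -0.47 without RPMI8226. CXCR5, the receptor that brings B cells into follicles, had a region over its start (chr11:118883708-118884097) with -0.88 (KMS-11), -0.93 (KMS-12) and -0.41 (RPMI8226) in the authors' deposited table, a mean of -0.74 ± 0.29 (SD, n = 3 lines). The Fc receptor gene FCGR2B (-0.66 ± 0.53), the Toll-like receptor genes TLR7 (-0.45 ± 0.16) and TLR1 (-0.43 ± 0.34, and -0.29 without KMS-11) and CISH, an inhibitor of cytokine signalling (-0.43 ± 0.32; SD, n = 3 lines each), had means nearer to 0 than the median gene-end region.

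Transcription factor genes were the next group, with 14 regions at 14 genes, a median mean of -0.63, 2 shared by 3 lines (LHX5 and KLF15; 14.3%, against 24.8% of all regions) and 0 with a mean of -1 or lower (against 12.3% of all regions). NR3C1 encodes the glucocorticoid receptor, the target of dexamethasone in myeloma treatment. The region over its outermost start (chr5:143435265-143435574) had -0.45 (KMS-11), -0.74 (KMS-12) and -1.42 (RPMI8226) in the authors' deposited table, a mean of -0.87 ± 0.49 (SD, n = 3 lines). HES1, a repressor and target of Notch signalling, had -0.53 (KMS-11), -1.92 (KMS-12) and -0.20 (RPMI8226) over its start (chr3:194135938-194136216) in the authors' deposited table. Its mean of -0.89 ± 0.91 (SD, n = 3 lines) was -0.37 without KMS-12, and the 3 CCAAT boxes of the printed window all fall in the stretch that the region covers. The KMS-12 fold of HES1 recurred in 18 regions.

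Several factors of embryonic patterning had a region over or near their start or end: NEUROG3 (-0.83 ± 0.48), MEOX1 (-0.80 ± 0.68), GSC (-0.73 ± 0.72, and -0.33 without KMS-12), LHX5 (-0.64 ± 0.14), WT1 (-0.63 ± 0.19) and TBX18 (-0.57 ± 0.35; SD, n = 3 lines each). MYCN, a paralogue of MYC, had a region 91 bp from its start (chr2:15940641-15941050) with -0.70 (KMS-11), -0.91 (KMS-12) and -0.11 (RPMI8226) in the authors' deposited table. Its KMS-12 fold was that of CD300LD, which recurred in 213 regions. KMS-11 missed -0.5 in 6 of the 14 (NR3C1, NEUROG3, MEOX1, GSC, WT1 and TBX18) and RPMI8226 in another 6 (among them HES1, ZFP3, MYCN, FOXH1 and TEAD3), while KMS-12 was at or below -0.5 in all 14. Over all gene-end regions KMS-11 missed it in 31.0%, RPMI8226 in 34.8% and KMS-12 in 12.2%. The KMS-12 fold was a recurring one in 78.6% of the 14, against 53.6% of all gene-end regions. The part of recurrence in this was not tested.

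**Figure D3:**
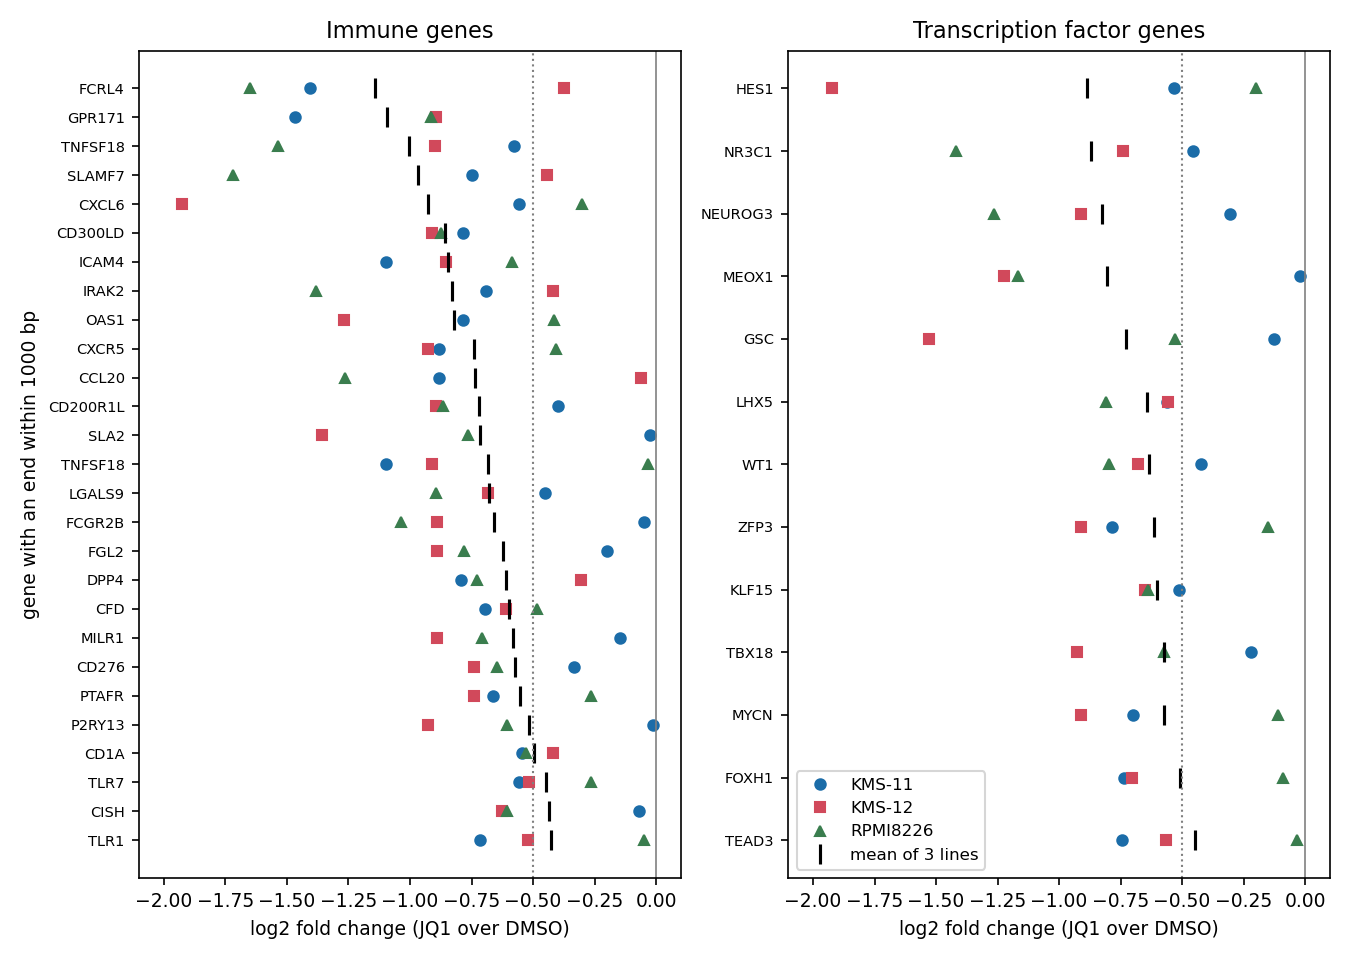
Log2 fold change of JQ1 over DMSO (x axis) in KMS-11 (circles), KMS-12 (squares) and RPMI8226 (triangles) at 27 regions of immune genes (left) and 13 of the 14 of transcription factor genes (right), named on the y axis; black bars are means of 3 lines, the dotted line marks -0.5, and TNFSF18 appears once for each end. SLAMF7 and NR3C1 are lowest in RPMI8226 (-1.72 and -1.42), CXCL6 and HES1 in KMS-12 (-1.93 and -1.92).

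Of 14 regions at genes of metabolic enzymes and lipid transporters, 4 were shared by 3 lines (28.6%, against 24.8% of all regions) and the median mean was -0.68. Besides SCD, CYP26A1, which degrades retinoic acid (chr10:93073661-93074213), had -1.06 ± 0.66, and -0.70 without KMS-12, and DHRS3, which reduces retinal, had -0.69 ± 0.54, and -0.44 without KMS-12. SPHK1, which makes sphingosine-1-phosphate, had -0.77 ± 0.25 and the cholesterol exporter gene ABCG1 -0.65 ± 0.21 (SD, n = 3 lines each). At 11 regions of ion channel, exchanger and synaptic genes the median mean was -0.76, and 5 were shared by 3 lines (45.5%, Wilson 95% interval 21.3 to 72.0%, against 24.8% of all regions), among them SV2C, LRRC8C, CNTNAP2 and SLC8A2. This group too was put together after the values were seen, and the interval covers counting error only. SLC12A7 and SLC8A2 were counted in it, while the solute carriers SLC16A9, SLC38A3 and SLC45A3, each shared by 2 lines, were not. The potassium channel gene KCNA1 had -1.11 ± 0.79 and the synaptic vesicle gene SV2C -0.96 ± 0.30 (SD, n = 3 lines each).

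At 11 regions of adhesion and matrix genes the median was -0.71, with the desmosome-linked plakin gene PPL lowest at -0.95 ± 0.35, followed by the erythroid adhesion gene ICAM4 at -0.85 ± 0.26. At 8 regions of vesicle traffic genes it was -0.68, with RAB26 at -0.77 ± 0.20 and RAB27B, which docks secretory vesicles, at -0.69 ± 0.36 (SD, n = 3 lines each). The PPL folds recurred in 60 regions in KMS-11 and 34 in KMS-12, and the KMS-11 fold at ICAM4 in 109.

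Gene lists put the gene-end regions beside pathways studied in myeloma. None of the 10 lists for BET inhibitor response, ETS factors, the unfolded protein response, NF-kB, AP-1 with the immediate early genes, apoptosis, the cell cycle, mRNA splicing and export, cytosolic ribosomal proteins and ZNF zinc finger genes, 887 genes in all, had a gene with a gene-end region, where 354 of all 38386 genes (0.922%) had one. The gene ZNFX1 was not on the ZNF list, and a region 691 bp from one of its ends averaged -0.55. In the Notch list (16 genes) HES1 had one, in the plasma cell identity list (20 genes) SLAMF7, in the interferon list (22 genes) OAS1 and among 97 histone genes H4C15. The OAS1 region (chr12:112905771-112905967, 995 bp before the start) averaged -0.82 ± 0.43 (SD, n = 3 lines), but its KMS-11 fold recurred in 178 regions and its KMS-12 fold in 124. Of 439 solute carriers, 5 had a region, between -0.70 and -0.64. The means of 4 moved by more than 1.5 times without 1 line: SLC12A7 (-0.70, and -0.37 without KMS-12), SLC45A3 (-0.68, and -0.36 without KMS-12), SLC38A3 (-0.67, and -0.36 without RPMI8226) and SLC16A9 (-0.64, and -0.33 without KMS-12). The other, SLC8A2, had -0.66 ± 0.11 (SD, n = 3 lines).

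For noncoding genes the lists followed the symbols. Of 2311 genes named LINC, 20 had a region (0.865%, against 0.922% of all genes), with a median mean of -0.68, 6 shared by 3 lines (30.0%, against 24.8% of all regions) and LINC00563 lowest at -0.95 ± 0.19. LINC01682 had -0.82 ± 0.29, LINC02174 -0.83 ± 0.70, and -0.55 without KMS-11, and LINC02117 -0.77 ± 0.50. The LINC02117 folds recurred in 178 regions in KMS-11 and 124 in KMS-12, as at OAS1. Of 2050 antisense genes, 17 had a gene-end region (0.829%), with a median of -0.68 and 3 shared by 3 lines (17.6%, against 24.8% of all regions). PTPRC-AS1, antisense to the gene of the leukocyte phosphatase CD45, was lowest at -0.98 ± 0.64, followed by PCED1B-AS1 at -0.90 ± 0.29, ICAM4-AS1 at -0.85 ± 0.26 and PTPRS-AS1 at -0.81 ± 0.59, and -0.53 without KMS-12 (SD, n = 3 lines each). The 6 regions at divergent transcripts, lncRNAs that start back to back with a neighbour, had a median of -0.62, 0 shared by 3 lines (against 24.8% of all regions) and 1 with a mean of -1 or lower (16.7%, against 12.3%). They included CELF2-DT (-1.002 ± 0.52), GSC-DT (-0.73 ± 0.72), CAPN10-DT (-0.62 ± 0.28) and ZFP3-DT (-0.62 ± 0.41). Not all lay at the start of the transcript: that of CELF2-DT lay 637 bp past its 3′ end and that of PGLS-DT over its 3′ end. The CAPN10-DT region lay 935 bp from the start. MIR205HG, the host of miR-205, had -0.69 ± 0.15 (SD, n = 3 lines each).

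Gene starts could be told from 3′ ends for the 250 of 354 genes with a strand in the promoter table. Of the regions concerned, 130 lay at starts alone and 81 at 3′ ends alone. The rest were 9 near both kinds, 11 near ends of which some had no strand, and 88 whose genes had none. Start-side regions had a median mean of -0.68, against -0.70 at 3′ ends. In the authors' deposited table the medians were -0.62, against -0.69, for KMS-11, -0.89, against -0.77, for KMS-12 and -0.56, against -0.58, for RPMI8226. Start minus 3′ end averaged -0.01 ± 0.10 (SD, n = 3 lines; exact sign-flip permutation test over lines, two-sided p = 1), and KMS-12 was the line with the opposite sign. Shared by 3 lines were 28 start-side regions (21.5%), against 20 at 3′ ends (24.7%), where 24.8% of all regions were.

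Where a start was known, 65 regions spanned it, 39 lay upstream and 41 downstream. The median means were -0.69, -0.71 and -0.62 in that order. The 3 lowest of all regions at starts, LOC124904677, LOC124900834 and NALF1-IT1, spanned the start with their centre just upstream of it. At 3′ ends, 14 regions spanned the end, 39 lay inside the gene and 42 past it, with median means of -0.69, -0.71 and -0.63.

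**Figure D4:**
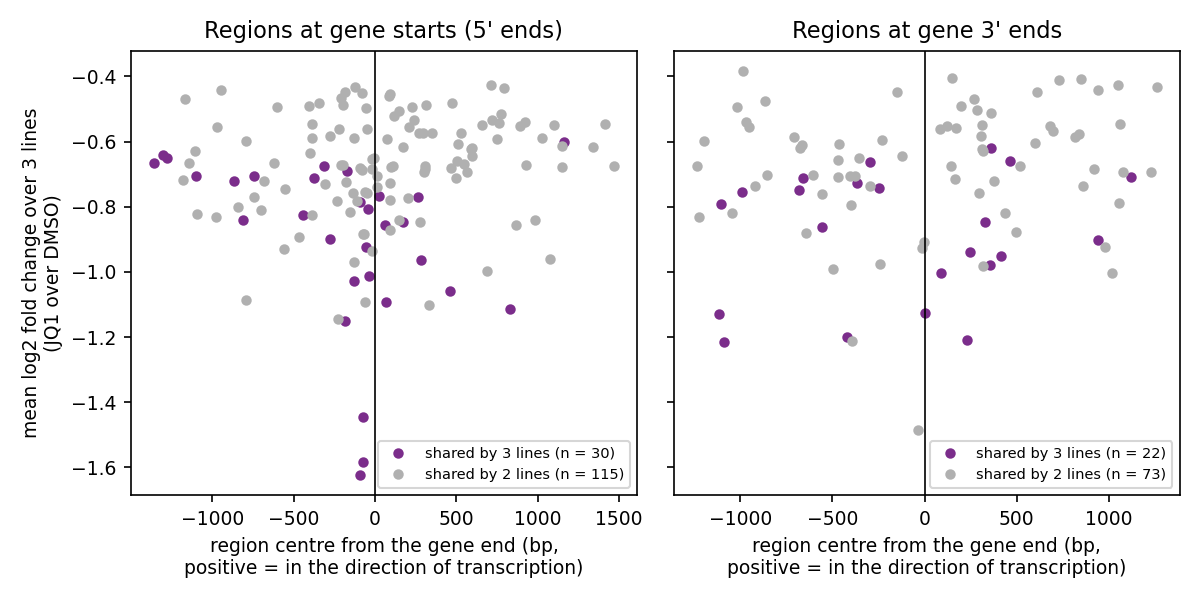
Mean log2 fold change over 3 lines (y axis) against the distance of the region centre from the gene start (left) or gene 3′ end (right) in bp (x axis, positive in the direction of transcription); each point is a region, purple where shared by 3 lines and grey where shared by 2. Means lie between -1.62 and -0.38 with no visible trend along the distance, and the 3 lowest on the left sit just upstream of the start.

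Protein-coding and lncRNA gene ends differed in the same way by line. The nearest end was that of a protein-coding gene in 156 regions and of an lncRNA gene in 153, and both were equally near in 10. Medians at protein-coding ends were -0.61, against -0.69 at lncRNA ends, for KMS-11, -0.89, against -0.74, for KMS-12 and -0.55, against -0.59, for RPMI8226, from the authors' deposited table. The difference, protein-coding minus lncRNA, averaged -0.01 ± 0.12 (SD, n = 3 lines; exact sign-flip permutation test over lines, two-sided p = 1). Shared by 3 lines were 31 regions at protein-coding ends (19.9%), against 39 at lncRNA ends (25.5%), where 24.8% of all regions were.

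The 82 regions over promoter windows were split by the CpG ratio of the window, a comparison added after the data were seen. The 36 regions at CpG-rich windows, with a ratio of 0.6 or more, had a median mean of -0.65, against -0.77 at the 46 CpG-poor ones. Shared by 3 lines were 4 (11.1%), against 13 (28.3%), where 24.8% of all regions were. A mean of -1 or lower was reached by 1 (2.78%), against 9 (19.6%), where 12.3% of all regions did. The share with a recurring fold was 11.1%, against 37.0%, in KMS-11 and 63.9%, against 65.2%, in KMS-12. The part of recurrence in these differences was not tested. Medians in the authors' deposited table were -0.55, against -0.73, for KMS-11, -0.90, against -0.84, for KMS-12 and -0.52, against -0.65, for RPMI8226. CpG-rich minus CpG-poor averaged 0.09 ± 0.13 (SD, n = 3 lines; exact sign-flip permutation test over lines, two-sided p = 0.5). Median widths were 729 bp at CpG-rich windows, against 461 bp at CpG-poor ones. Among regions under 700 bp CpG-rich minus CpG-poor came to 0.05.

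**Figure D5:**
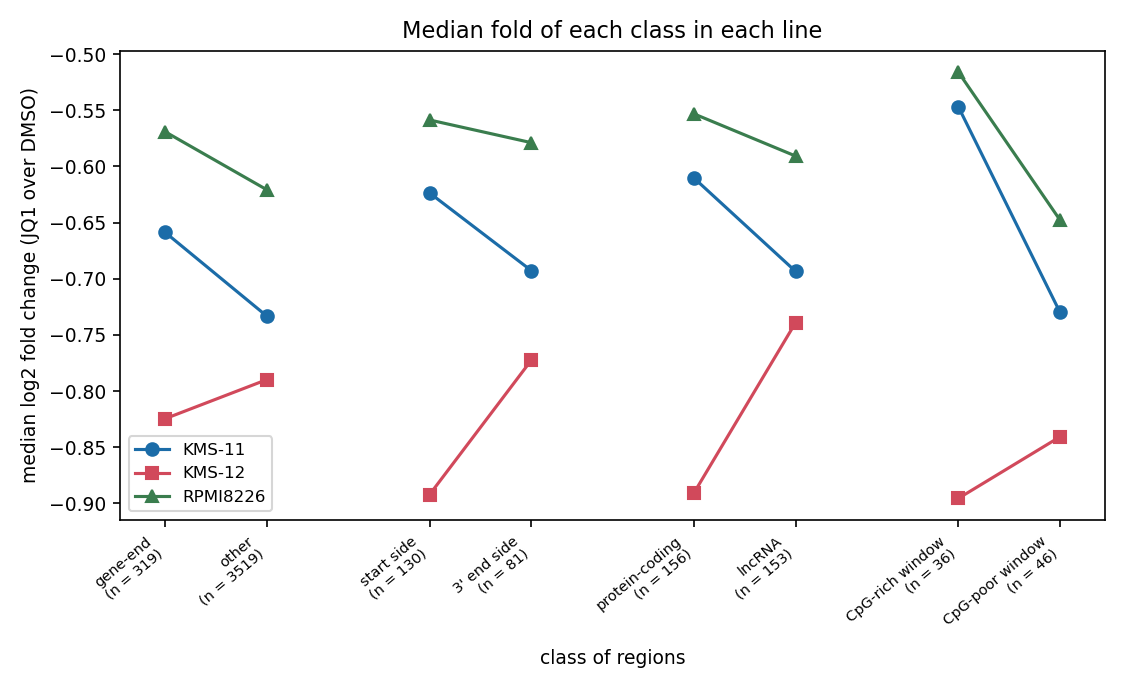
Median log2 fold change of JQ1 over DMSO (y axis) in each line (circles KMS-11, squares KMS-12, triangles RPMI8226) for 4 pairs of classes (x axis, with the number of regions); lines join the classes of a pair. In each pair the slope in KMS-12 runs opposite to that in KMS-11 and RPMI8226.

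Ends of 2 or more genes lay within 1000 bp of 38 regions. None of the 38 had a mean of -1 or lower, against 28 of the 281 regions near 1 gene (9.96%), where 12.3% of all regions did. The 38 had a median mean of -0.63, against -0.68 near 1 gene. Shared by 3 lines were 5 (13.2%), against 65 (23.1%), where 24.8% of all regions were. Lowest were the regions at LOC105369949 and SLAMF7 described above, at PPL and UBN1, a histone chaperone subunit gene (-0.95 ± 0.35), at GARIN2 and LOC105370538 (-0.93 ± 0.54), and at PLXDC2 and LOC124902388 (-0.88 ± 0.83, and -0.45 without KMS-12; SD, n = 3 lines each). DDAH2 and MPIG6B followed. A region within 1000 bp of 3 genes was found at RAB5IF, TGIF2-RAB5IF and SLA2 and at TEAD3, TULP1 and LOC124901309, and reads there cannot be given to one of the genes.

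At the limit of the rule, the 2 regions just inside lay 1000 bp from IRAK2, a kinase of interleukin-1 receptor signalling (-0.83 ± 0.50), and 995 bp from OAS1 (-0.82 ± 0.43). Those just outside lay 1010 bp from SLC1A3-AS1 (-0.97 ± 0.24) and 1023 bp from LOC124909378 (-0.62 ± 0.51; SD, n = 3 lines each).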

How the data were processed

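The 6 ATAC-seq libraries were grouped by the treatment and line in the labels. What the authors deposited is a table of regions whose 3 value columns, 1 per line, were read as log2 fold changes, beside a count of the lines that share each region. DESeq2, MACS2, hg38 and GRCh38.p13 are named per the submitters' processing notes. Aligner, filters, peak settings, scaling and any shift of reads remain not given in the sources used here. Read counts are absent from the table, so depth is unknown and no count model or counting error of a fold could be had.

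Regions were set against 20056 protein-coding and 18330 lncRNA genes of RefSeq GRCh38.p14, a distance of 0 meaning that the coordinate lies in the region. Strand and sequence came from the RefSeq promoter table, which held 27305 of these genes. Coordinates of regions are as the authors' file gives them. The exact sign-flip test took the difference of medians in each of 3 lines. Folds were not tested against 0, since the table was selected for low folds. Regions were named by rule: the 12 lowest means, 6 smallest and 4 largest SDs, 4 means nearest to 0, 6 lowest near ends of 2 or more genes, up to 4 per list, and 2 on each side of the limit; genes named by role were added. The rule, members and lists were chosen with earlier results of these data known. Python 3.11.15, numpy 2.4.6, pandas 2.3.3, scipy 1.17.1 and matplotlib 3.10.9 were used, and distances and differences were tested on simulated data. Alternatives were other distance limits, protein-coding ends only, no recurring folds, means in place of medians, other fold limits and leaving out each line. A few named regions are not reported here.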

Additional observations from a re-analysis of the deposited data

Results flagged for a closer look

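In 4 pairs of classes, KMS-12 had a difference of medians of the opposite sign to the other lines. With 1 library per line and treatment, this difference between lines was not tested. Gene-end minus other regions came to -0.0348 in KMS-12, against 0.0746 in KMS-11 and 0.0517 in RPMI8226. Start-side minus 3′ end regions came to -0.120 in KMS-12, against 0.0691 in KMS-11 and 0.0202 in RPMI8226. Protein-coding minus lncRNA ends came to -0.152 in KMS-12, against 0.0832 in KMS-11 and 0.0376 in RPMI8226. CpG-rich minus CpG-poor promoter windows came to -0.0549 in KMS-12, against 0.183 in KMS-11 and 0.132 in RPMI8226. These pairs of classes overlap in their regions and are not independent of each other. KMS-12 was also the line with the most recurring folds (53.6% of gene-end regions, against 33.5% in KMS-11 and 7.84% in RPMI8226), whose part in this was not tested.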

How the results depend on the processing

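Each deposited fold is already JQ1 over DMSO within a line, so every comparison kept the pairing by line. No value per library was used. The mean difference of medians between start-side and 3′ end regions, -0.01, was 0.00748 with means over regions. That between protein-coding and lncRNA ends, -0.01, was 0.00135 with a 500 bp limit and 0.0112 with means. Leaving out 1 line gave -0.0497 to 0.0447 for the start and 3′ end difference and -0.0571 to 0.0604 for the protein-coding and lncRNA difference, positive in both cases without KMS-12. No direction is read from either. Gene-end minus other regions, 0.03, ran from 0.00843 to 0.0631 with a line left out and moved by less than its spread over lines under every alternative. CpG-rich minus CpG-poor windows, 0.09, was 0.0482 among regions under 700 bp, 0.160 with means over regions, and 0.0385 (without KMS-11) to 0.157 (without KMS-12) with a line left out.

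The share of gene-end regions shared by 3 lines, 21.9%, was 4.39% at a limit of -0.75, and 34.2 to 56.7% were at or below -0.5 in both remaining lines when 1 was left out. Without KMS-12 the 34.2% stood against 46.3% of the other regions, without KMS-11 53.0% stood against 46.9%, and without RPMI8226 56.7% against 57.0%. Since every listed region reached -0.5 in 2 or 3 lines, these shares restate which line missed it and are no separate check. The share with a mean of -1 or lower, 8.78%, was 13.9% among regions with no recurring fold and 8.15 to 16.9% with a line left out. The width difference of 62 bp was 0.5 bp without recurring folds, and 81.5%, not 66.1%, of gene-end regions held a recurring fold when 5 regions sufficed. The causes were not tested. Depth limits every fold of a single line, and its size is unknown.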
